A study of Mus musculus with 12 samples.

Results

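The 10 genes described here are the Period genes Per1, Per2 and Per3, the nuclear receptor genes Nr1d1 and Nr1d2, the PAR bZIP transcription factor genes Dbp, Tef and Hlf, and the clock-controlled genes Usp2 and Ciart. They were chosen by name as a set of rhythmic liver genes, out of 19937 genes with a probe set assigned to 1 symbol. All 10 passed the filter on low values. The choice was made with earlier results of these data known, so counts among the 10 are descriptive and no independent support. Liver RNA came from male C57Bl/6 mice, 3 animals in each of 4 groups: Hdac6 knockout (HDAC6 Y/-) with dexamethasone, Hdac6 knockout with vehicle, wild type with dexamethasone and wild type with vehicle. Dexamethasone, a synthetic glucocorticoid, at 1 mg/kg, or vehicle, was given by intraperitoneal injection over 3 weeks. All animals were fed freely under a constant cycle of day and night, and the hour of collection, the age of the mice, the interval after the last injection and how the allele was made are not given in the sources used here. Each animal was measured on 1 Affymetrix whole-transcript array, and the values are deposited log2 intensities, so that a difference of 1 is a factor of 2.

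The circadian clock of the liver is a feedback loop of transcription. The proteins CLOCK and ARNTL (BMAL1) bind E-boxes and drive the Period, Cryptochrome, Rev-erb and Dbp genes, and the PER and CRY proteins in turn inhibit CLOCK and ARNTL. The Rev-erb receptors, encoded by Nr1d1 and Nr1d2, repress Arntl, and DBP, TEF and HLF bind D-boxes and carry the rhythm to genes of metabolism. Because these transcripts rise and fall over the day, a level measured once depends on the hour of collection. Glucocorticoids are one of the signals that set the clock of peripheral organs, and Per1 is a known direct target of the glucocorticoid receptor. Hdac6 encodes a mainly cytoplasmic deacetylase.

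Promoter windows of 4 genes that the results turn on are shown because they differ in which clock motifs they hold. They span 250 bases before to 50 bases after the annotated start and come from RefSeq, build GRCm38.p6. The windows are Ciart at chr3:95882179-95882478 on the minus strand, the first of a pair of Per1 starts at chr11:69098699-69098998 on the plus strand, Per3 at chr4:151044616-151044915 on the minus strand and Usp2 at chr9:44084670-44084969 on the plus strand. Capitals mark an E-box (CACGTG) in Ciart and Per1 and a D-box (TTATGTAA or TTACGTAA) in Per3.
Ciart: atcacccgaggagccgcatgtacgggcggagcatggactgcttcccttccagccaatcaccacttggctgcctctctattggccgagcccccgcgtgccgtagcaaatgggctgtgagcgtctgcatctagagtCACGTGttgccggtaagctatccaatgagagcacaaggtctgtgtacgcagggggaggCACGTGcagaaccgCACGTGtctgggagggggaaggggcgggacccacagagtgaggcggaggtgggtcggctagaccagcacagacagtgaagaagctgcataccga
Per1: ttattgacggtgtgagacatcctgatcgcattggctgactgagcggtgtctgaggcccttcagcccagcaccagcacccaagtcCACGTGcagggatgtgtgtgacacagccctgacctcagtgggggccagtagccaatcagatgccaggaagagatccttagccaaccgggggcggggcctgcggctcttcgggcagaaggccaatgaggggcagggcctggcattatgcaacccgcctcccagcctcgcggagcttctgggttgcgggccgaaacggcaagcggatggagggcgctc
Per3: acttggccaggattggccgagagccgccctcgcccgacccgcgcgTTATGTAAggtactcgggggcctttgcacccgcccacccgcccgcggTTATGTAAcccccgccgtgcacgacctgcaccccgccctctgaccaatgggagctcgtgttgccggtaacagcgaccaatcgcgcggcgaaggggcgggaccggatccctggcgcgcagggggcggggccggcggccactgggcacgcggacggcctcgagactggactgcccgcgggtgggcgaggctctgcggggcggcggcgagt
Usp2: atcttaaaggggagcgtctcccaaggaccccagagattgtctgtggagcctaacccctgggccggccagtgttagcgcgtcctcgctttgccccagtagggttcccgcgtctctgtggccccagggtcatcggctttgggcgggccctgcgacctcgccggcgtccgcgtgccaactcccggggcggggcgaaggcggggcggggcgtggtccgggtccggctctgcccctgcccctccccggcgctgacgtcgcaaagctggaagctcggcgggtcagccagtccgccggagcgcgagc
The Ciart window held 3 E-boxes, starting at -116, -58 and -44 from the start site, and the Per1 window held 1, at -166. The Per3 window held 2 D-boxes, at -205 and -158, both with the letters TTATGTAA. None of these letters stood in the Usp2 window or in the window of the other Per1 start. The Usp2 window is the only 1 available and lies downstream of the annotated gene start at 44067021, whose promoter was not searched. Both strands were searched in 11 promoters of 9 of the genes. The E-box was found in 4 of the 11, those of Ciart and Per1 and both of Tef, against 7.15% of all 32851 promoters of this length in the table. The D-box was found in Per3, against 1.06% of all promoters. Nr1d1 held a single E-box variant, CACGTT, at -28, a motif of 4.68% of all promoters. The cyclic AMP response element TGACGTCA stood at -9 in Hlf and in 1.79% of all promoters. The glucocorticoid receptor half-site AGAACA stood in 1 Tef promoter and in 19% of all promoters, and the Rev-erb half-site AGGTCA stood in Per1 and Nr1d2 and in 16.3% of all promoters. A match describes the letters of the window and is no measured binding site.

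Array medians lay between 3.132 and 3.239. Hdac6 averaged 3.75 ± 0.136 in knockout dexamethasone arrays and 5.99 ± 0.167 in wild-type dexamethasone arrays, and 4.12 ± 0.255 in knockout vehicle arrays against 6.20 ± 0.203 in wild-type vehicle arrays (SD, n = 3 each). All 6 knockout arrays lay below all 6 wild-type arrays. The mean of the hepatocyte markers was 12.61 to 12.75 in all 12 arrays. Transcripts of the exocrine pancreas, with 10 of 12 markers measured, averaged 8.52 in knockout vehicle array 3, 7.72 in wild-type dexamethasone array 3, 9.64 in wild-type vehicle array 1 and 9.43 in wild-type vehicle array 2, against 3.09 to 3.57 in the other arrays. Kupffer cell markers averaged 5.71 to 6.18 in wild-type dexamethasone arrays against 6.68 to 7.72 in wild-type vehicle arrays, and 6 of 8 were lower there with an adjusted p under 0.05. In knockout livers they averaged 6.42 to 7.30 with dexamethasone and 6.54 to 6.95 with vehicle, and 0 of 8 passed in limma (0 also at an unadjusted p under 0.05). Between knockout and wild type under dexamethasone the median difference of the Kupffer markers was 0.7505, and 0 of 8 passed but 7 had an unadjusted p under 0.05. Of 6 endothelial markers, 1 was higher and 2 lower with dexamethasone in knockout livers, and 1 was higher and 3 lower in wild-type livers. In wild-type livers 2 of 5 lymphocyte markers and 1 of 6 stellate cell markers were also lower with dexamethasone. The lymphocyte markers lay low, below the array medians, averaging 2.543 to 2.615 with dexamethasone and 2.668 to 2.895 with vehicle. Of all genes 6.95% were lower and 4.57% higher with dexamethasone in wild-type livers. In knockout livers 3.92% were lower and 4.38% higher. Stellate cell markers had a median difference of -0.3719 between knockout and wild type under vehicle, where 0 of 6 passed and 4 had an unadjusted p under 0.05. None of 5 cholangiocyte markers passed in these 4 comparisons in limma, and 1 had an unadjusted p under 0.05, between genotypes under vehicle. In whole liver, fewer cells of a type and less RNA per cell cannot be told apart. The part of these markers in the results was not tested, but each result was also computed without the 4 pancreas-bearing arrays. In that fit array 3 was the only wild-type vehicle array left, and it was above its group mean in 10 of the 10 genes.

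With dexamethasone, Ciart, Usp2 and Per1 were higher and Nr1d1 was lower in both genotypes. Dbp and Per3 were lower in wild-type livers. In wild-type livers 3 of the 10 genes were higher and 3 lower at a Benjamini-Hochberg adjusted p under 0.05 in limma, where 11.5% of the 17904 genes tested passed, 4.57% higher and 6.95% lower. In knockout livers 3 were higher and 1 lower, where 8.29% of all genes passed, 4.38% higher and 3.92% lower. The median log2 change of the 10 was 0.0438 in wild-type livers, against 0.00957 over all genes. In knockout livers it was 0.3912, against -0.009 over all genes. The spread of the groups was read in the same way: 7 of the 10 did not overlap between dexamethasone and vehicle in wild-type livers, where 27% of all genes did not, and 5 of the 10 in knockout livers, where 24.3% did not. Fkbp5, a classical glucocorticoid target, rose by 4.71 ± 0.224 in knockout livers (adjusted p = 3.22e-08) and by 5.01 ± 0.224 in wild-type livers (adjusted p = 1.84e-08; log2 change ± SE in limma). Both comparisons rest on the vehicle arrays of their own genotype.

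**Figure D1:**
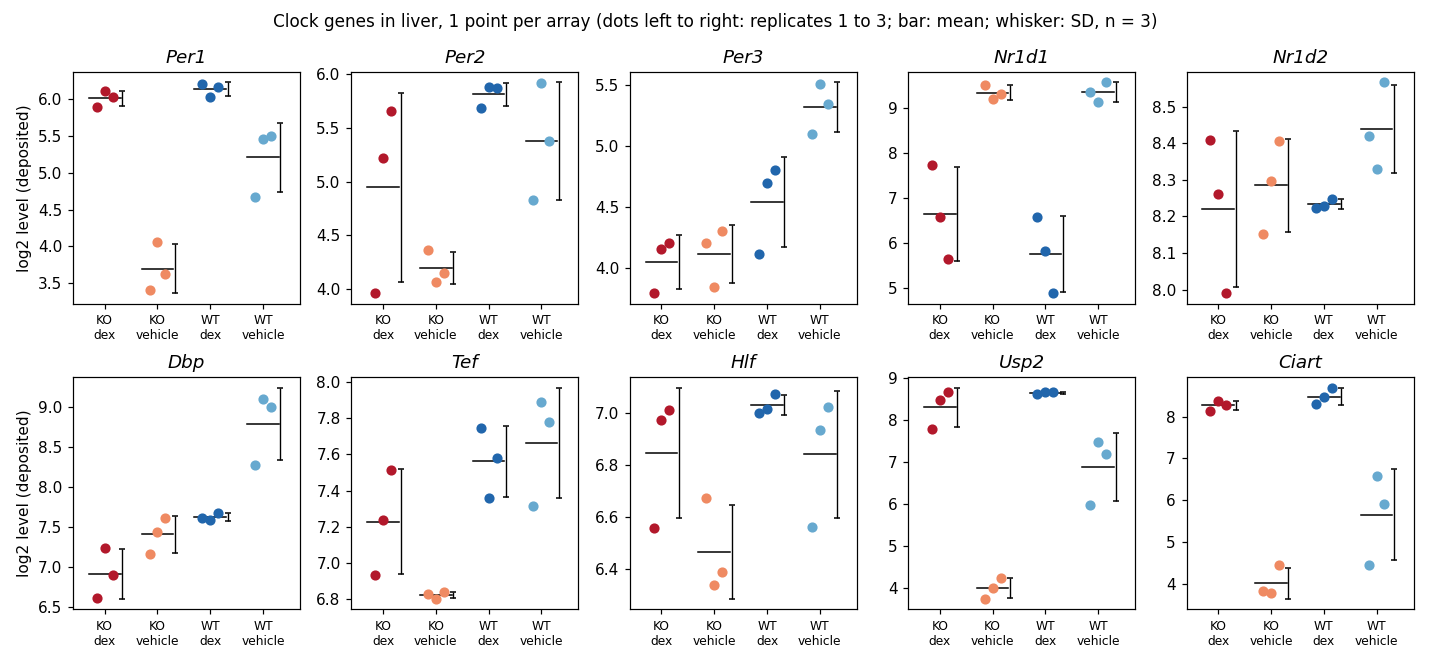
Deposited log2 level of the 10 genes in every array, by group; each point is 1 array, the bar is the mean and the whisker the SD (n = 3). Ciart and Usp2 stood well above vehicle with dexamethasone in both genotypes, whereas Nr1d1 stood below it.

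Ciart (CHRONO), a repressor of CLOCK and ARNTL, had log2 levels of 8.15, 8.38 and 8.28 in knockout dexamethasone arrays and 3.82, 3.78 and 4.44 in knockout vehicle arrays. In wild-type arrays it had 8.30, 8.46 and 8.70 with dexamethasone and 4.45, 6.59 and 5.92 with vehicle. Every dexamethasone array was above every vehicle array of both genotypes. The log2 change was 4.26 ± 0.383 in knockout livers (19.2-fold, adjusted p = 1.14e-05) and 2.84 ± 0.383 in wild-type livers (7.14-fold, adjusted p = 0.000332; limma). A second probe set of Ciart, with a lower mean, gave changes of 4.88 in knockout livers and 2.45 in wild-type livers. Its mean of 2.51 in knockout vehicle arrays lay near the arrays' 20th percentile of 2.17 to 2.23.

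Usp2, a deubiquitinating enzyme whose substrates include clock proteins, had log2 levels of 7.77, 8.48 and 8.65 in knockout dexamethasone arrays and 3.76, 4.0 and 4.25 in knockout vehicle arrays. Wild-type levels were 8.61, 8.66 and 8.65 with dexamethasone and 5.97, 7.49 and 7.19 with vehicle. The groups did not overlap in either genotype, and the 3 knockout vehicle arrays lay below all others. Usp2 changed by 4.30 ± 0.315 in knockout livers (19.7-fold, adjusted p = 1.98e-06) and by 1.76 ± 0.315 in wild-type livers (3.38-fold, adjusted p = 0.00264; limma).

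Per1, a repressor of the loop and a glucocorticoid receptor target, had log2 levels of 5.90, 6.11 and 6.03 in knockout dexamethasone arrays and 3.40, 4.06 and 3.63 in knockout vehicle arrays. Wild-type levels were 6.21, 6.04 and 6.16 with dexamethasone and 4.67, 5.46 and 5.50 with vehicle. The dexamethasone groups of the genotypes overlapped, and each was above its own vehicle group. The change was 2.32 ± 0.202 in knockout livers (4.98-fold, adjusted p = 8.91e-06) and 0.92 ± 0.202 in wild-type livers (1.90-fold, adjusted p = 0.00917; limma). Without the 4 pancreas-bearing arrays a single wild-type vehicle array was left, and the wild-type change was then 0.62.

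Per2 and Per3, the other repressors of the family, behaved less alike. Per2 levels were 3.96, 5.22 and 5.66 in knockout dexamethasone arrays and 4.36, 4.07 and 4.15 in knockout vehicle arrays. They were 5.68, 5.88 and 5.87 in wild-type dexamethasone arrays and 4.82, 5.92 and 5.38 in wild-type vehicle arrays. The dexamethasone groups overlapped the vehicle groups in both genotypes, with knockout dexamethasone array 1 lowest of its group. The difference was 0.75 ± 0.344 in knockout livers (adjusted p = 0.262) and 0.44 ± 0.344 in wild-type livers (adjusted p = 0.507; limma), neither past the threshold. Single omissions moved Per2 both ways. In knockout livers it was at 1.25 without knockout dexamethasone array 1 (adjusted p = 0.00696) and at 0.40 without knockout dexamethasone array 3 (adjusted p = 0.659; limma). In wild-type livers it was at 0.16 without wild-type vehicle array 1 and at 0.71 without wild-type vehicle array 2, past the threshold in no omission.

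Per3 levels were 3.79, 4.15 and 4.20 in knockout dexamethasone arrays and 4.20, 3.84 and 4.30 in knockout vehicle arrays. They were 4.12, 4.70 and 4.80 in wild-type dexamethasone arrays and 5.10, 5.51 and 5.34 in wild-type vehicle arrays. Wild-type vehicle arrays were the highest, and the other groups overlapped their neighbours. The wild-type change was -0.78 ± 0.185 (adjusted p = 0.0148), and the knockout change was -0.07 ± 0.185 (95% confidence interval -0.467 to 0.334, adjusted p = 0.919; limma). The wild-type call was lost without wild-type vehicle array 2 (-0.68, adjusted p = 0.0583) and without wild-type dexamethasone array 1 (-0.57, adjusted p = 0.0592). Without the 4 pancreas-bearing arrays the wild-type change was -0.94. This value rests on a single wild-type vehicle array and is no stronger result.

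Nr1d1, which encodes the Rev-erb alpha repressor, had log2 levels of 7.73, 6.57 and 5.64 in knockout dexamethasone arrays and 9.52, 9.20 and 9.32 in knockout vehicle arrays. Wild-type levels were 6.58, 5.82 and 4.89 with dexamethasone and 9.35, 9.14 and 9.57 with vehicle. Vehicle arrays of both genotypes were tightly grouped, and dexamethasone arrays were lower and spread over more than 1 log2 unit. The log2 change was -2.70 ± 0.445 in knockout livers (6.50-fold lower, adjusted p = 0.00158) and -3.59 ± 0.445 in wild-type livers (adjusted p = 0.000171; limma). Its paralogue Nr1d2, with a similar role, lay between 7.99 and 8.57 in all 12 arrays. Nr1d2 was at -0.06 ± 0.113 in knockout livers (95% interval -0.309 to 0.180, adjusted p = 0.863) and at -0.21 ± 0.113 in wild-type livers (95% interval -0.450 to 0.039, adjusted p = 0.308; limma).

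Dbp, the D-box activator with the strongest daily rhythm of its family, had log2 levels of 6.61, 7.24 and 6.90 in knockout dexamethasone arrays and 7.16, 7.45 and 7.62 in knockout vehicle arrays. Wild-type levels were 7.61, 7.58 and 7.68 with dexamethasone and 8.27, 9.10 and 9.0 with vehicle. Wild-type vehicle arrays were above all others. The log2 change was -0.49 ± 0.204 in knockout livers (95% interval -0.931 to -0.051, adjusted p = 0.201) and -1.17 ± 0.204 in wild-type livers (adjusted p = 0.00226; limma). Tef and Hlf, the other activators of the family, did not pass in either genotype. Tef was at 0.40 ± 0.165 in knockout livers and at -0.10 ± 0.165 in wild-type livers. Hlf was at 0.38 ± 0.145 in knockout livers and at 0.19 ± 0.145 in wild-type livers. Hlf passed in knockout livers without knockout dexamethasone array 1 (0.52, adjusted p = 0.0408).

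**Figure D2:**
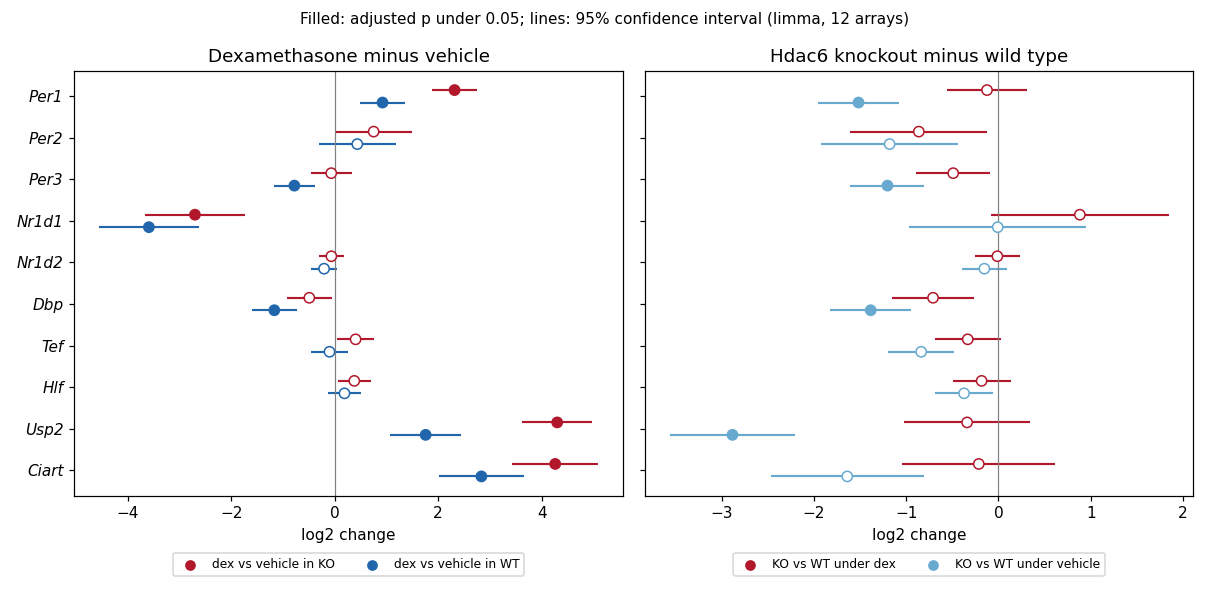
Log2 change of the 10 genes with its 95% confidence interval, for dexamethasone minus vehicle in each genotype (left) and knockout minus wild type under each treatment (right); filled points have an adjusted p under 0.05. In the left panel Usp2 and Ciart lie farthest to the right and Nr1d1 farthest to the left in both genotypes; in the right panel the filled points are Per1, Per3, Dbp and Usp2 under vehicle.

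Under vehicle, Usp2, Per1, Dbp and Per3 were lower in knockout than in wild-type livers. They were 4 of only 18 genes that passed in this comparison, or 0.101% of the 17904 tested (0.0614% lower), and ranked 2, 7, 9 and 12 by p, with Hdac6 first. None of the 10 was higher. All 10 log2 changes were below 0, and their median was -1.192, against 0.000395 over all genes. In 7 of the 10 the knockout arrays lay wholly below the wild-type arrays, where 6.04% of all genes did and 11.8% were apart in either direction.

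Usp2 had a log2 change of -2.88 ± 0.315 (7.38-fold lower, adjusted p = 0.00425; limma). It passed in all 26 alternative fits, which include those chosen after seeing the data, with changes between -3.34 and -2.58. Per1 was at -1.52 ± 0.202 (adjusted p = 0.0111), Dbp at -1.39 ± 0.204 (adjusted p = 0.0227) and Per3 at -1.20 ± 0.185 (adjusted p = 0.0288; limma). Per1 lost its call in 4 of the 26 fits and Dbp and Per3 in 8 each, with the sign kept throughout. Without wild-type vehicle array 2 the adjusted p was 0.07 for Per1, 0.134 for Dbp and 0.188 for Per3. Without knockout vehicle array 3 it was 0.0625 for Per1, 0.0528 for Dbp and 0.0655 for Per3. Dbp was at 0.0636 without wild-type vehicle array 3, 0.0885 without knockout vehicle array 1 and 0.101 without knockout vehicle array 2. Per3 was at 0.0684 without wild-type vehicle array 3, 0.0742 without knockout vehicle array 1, 0.156 without knockout vehicle array 2 and 0.0543 without knockout dexamethasone array 2. Over these single omissions 1 to 6 of the 10 genes passed. Without the 4 pancreas-bearing arrays a single wild-type vehicle array was left. The changes of Per1, Dbp and Per3 were then -1.77, -1.70 and -1.32, and that of Ciart was -2.12. These sizes rest on that array, which was above its group mean in 10 of the 10 genes, and are no stronger result.

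Ciart, Per2, Tef and Hlf were not past the threshold under vehicle. Ciart was at -1.64 ± 0.383 (adjusted p = 0.314), Per2 at -1.18 ± 0.344 (adjusted p = 0.461), Tef at -0.84 ± 0.165 (adjusted p = 0.131) and Hlf at -0.37 ± 0.145 (adjusted p = 0.627; limma). Ciart varied with the array left out and with the probe set. Single omissions gave -2.24 without wild-type vehicle array 1 (adjusted p = 0.000923) to -1.17 without wild-type vehicle array 2, with adjusted p up to 0.82, and the second probe set gave -2.55 (adjusted p = 0.00758). Tef, with 6.83, 6.80 and 6.84 in knockout vehicle arrays and 7.32, 7.89 and 7.78 in wild-type vehicle arrays, passed without wild-type vehicle array 1 (-1.01, adjusted p = 0.0269). The Rev-erb genes had the smallest differences of the 10. Nr1d1 was at -0.01 ± 0.445 (95% interval -0.969 to 0.953) and Nr1d2 at -0.15 ± 0.113 (95% interval -0.398 to 0.091). The error of Nr1d1 also holds the spread of the dexamethasone arrays. Its SD was 0.159 in knockout and 0.217 in wild-type vehicle arrays, against 1.05 and 0.850 with dexamethasone.

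Under dexamethasone 0 of the 10 genes passed between knockout and wild type in limma, where 0.0279% of all genes passed. At an unadjusted p under 0.05 there were 3, Per2, Per3 and Dbp, against 8.75% of all genes. The median log2 change was -0.2736, against -0.00342 over all genes. Nr1d1 had the largest value, 0.88 ± 0.445 (95% interval -0.0794 to 1.843, adjusted p = 0.614), and was the only one of the 10 above 0. Per2 was at -0.86 ± 0.344 (adjusted p = 0.51; limma), and Usp2 was at -0.34 ± 0.315 (95% interval -1.020 to 0.340), Ciart at -0.21 ± 0.383 (95% interval -1.041 to 0.614) and Per1 at -0.12 ± 0.202 (95% interval -0.561 to 0.312). Dbp was at -0.71 ± 0.204 (adjusted p = 0.342; limma). The knockout arrays lay wholly below the wild-type arrays in 2 of the 10, Per2 and Dbp, where 7.07% of all genes did and 14% were apart in either direction. Single omissions moved Nr1d1 between 0.34 and 1.39 and Per2 between -1.22 and -0.37, with no call.

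**Figure D3:**
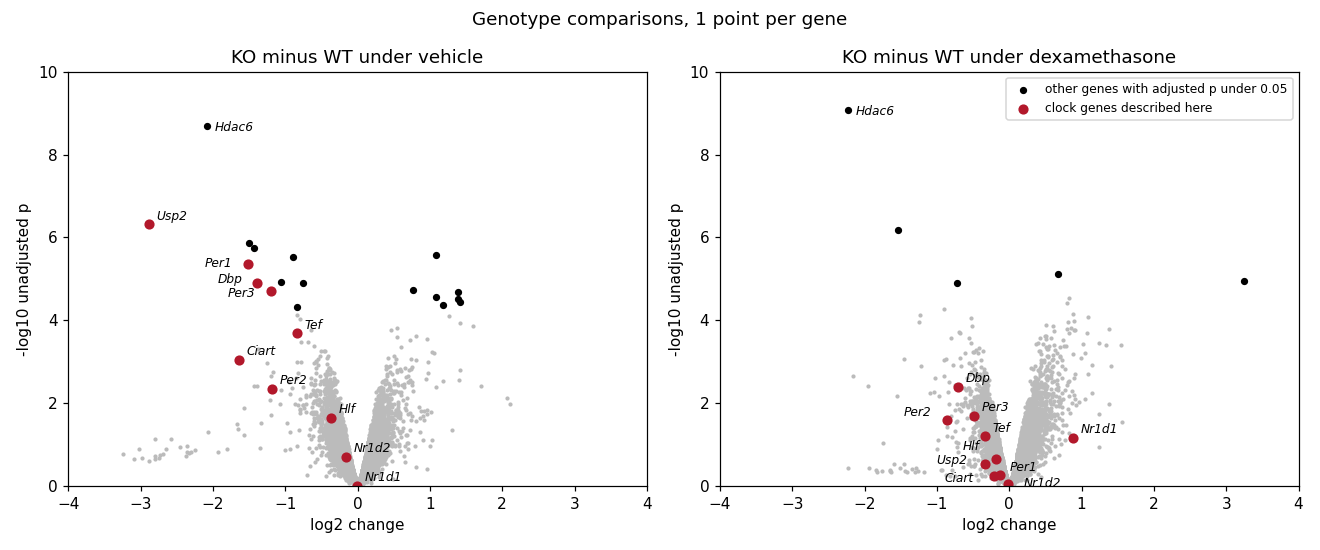
Log2 change (horizontal) and -log10 of the unadjusted limma p (vertical) of every gene for knockout minus wild type under vehicle (left) and under dexamethasone (right); red points are the 10 genes. Under vehicle Usp2, Per1, Dbp and Per3 lie among the 18 genes past the threshold, and under dexamethasone none of the 10 does.

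The difference between the dexamethasone effects, knockout minus wild type, was tested as an interaction. No gene passed at an adjusted p under 0.05, among the 10 or the 17904 (0%), and at an unadjusted p under 0.05 there were 6 of the 10, against 6.19% of all genes. Usp2 had 2.54 ± 0.445 (adjusted p = 0.25), Per1 1.39 ± 0.286 (adjusted p = 0.337) and Ciart 1.43 ± 0.542 (adjusted p = 0.754; limma). All 10 interaction values were above 0, with a median of 0.6942 against 0.0016. They share the vehicle arrays with the genotype comparison above. Without wild-type vehicle array 1, Usp2 (3.00, adjusted p = 0.00449) and Per1 (1.66, adjusted p = 0.038) passed. Without the 4 pancreas-bearing arrays Ciart was at 2.01. This value rests on a single wild-type vehicle array and is no stronger result.

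Averaged over genotypes, dexamethasone raised 3 of the 10 genes and lowered 3, where 17.2% of all genes passed, 7.29% higher and 9.94% lower. These were Ciart (3.55 ± 0.271), Usp2 (3.03 ± 0.223) and Per1 (1.62 ± 0.143) upward and Nr1d1 (-3.15 ± 0.315), Dbp (-0.83 ± 0.144) and Per3 (-0.42 ± 0.131) downward. Per3 lost its call in 7 of the 12 single omissions (-0.45 to -0.32 without wild-type vehicle array 2 or 3, wild-type dexamethasone array 1, knockout vehicle array 1 or 3, or knockout dexamethasone array 1 or 2), and Per2 (0.84) and Hlf (0.36) gained one without knockout dexamethasone array 1. Averaged over treatments, the knockout was lower in 3 of the 10, Usp2 (-1.61 ± 0.223), Dbp (-1.05 ± 0.144) and Per3 (-0.85 ± 0.131), where 0.0503% of all genes passed, 0.0335% lower. Over single omissions this count was between 0 and 6. It was 6 without wild-type vehicle array 1, 1 without wild-type dexamethasone array 1 or 2, and 0 without wild-type dexamethasone array 3 or knockout vehicle array 1 or 2. The averages over treatments combine unlike values. Usp2 was at -2.88 under vehicle and -0.34 under dexamethasone, Dbp at -1.39 and -0.71, and Per3 at -1.20 and -0.49.

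Across the 4 groups, Per1, Usp2, Ciart and Hlf shared 1 order of mean levels. Knockout with vehicle was lowest, wild type with vehicle next, then knockout and wild type with dexamethasone. In Per1, Usp2 and Ciart only the dexamethasone groups overlapped each other, and in Hlf every group overlapped its neighbour. Dbp and Per3 also shared an order, with knockout with dexamethasone lowest, then knockout with vehicle, wild type with dexamethasone and wild type with vehicle. Of these neighbours only wild type with vehicle did not overlap the group below it. Nr1d1 was separated only between dexamethasone and vehicle. For Per2 and Nr1d2, too, every group overlapped its neighbour in the order of means.

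The animals of a group differed more in most of these genes than in a typical gene. The residual SD within groups was 0.688 for Nr1d1, 0.589 for Ciart, 0.527 for Per2 and 0.48 for Usp2, against a median of 0.143 over all genes. It was 0.138 for Nr1d2. Some arrays moved together across the set. Wild-type vehicle array 1 was below its group mean in 9 of the 10 genes (root mean square deviation 0.582, against 0.178 over all genes). Wild-type vehicle array 3 was above its group mean in 10 of 10, but by no more than genes in general (0.202, against 0.219). Deviations within a group balance, so a low array places others above the mean. Knockout dexamethasone array 1 was below its group mean in 8 of 10 (root mean square deviation 0.53, against 0.149), with Nr1d1 1.08 above it. Wild-type vehicle array 1 was also one of the pancreas-bearing arrays, and knockout dexamethasone array 1 was not. The part of the pancreas transcripts in these deviations was not tested.

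**Figure D4:**
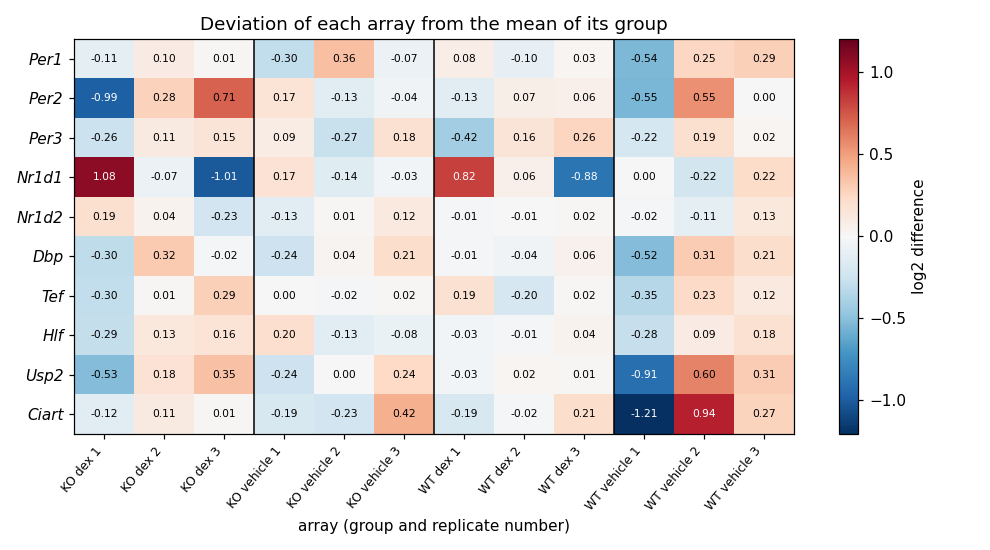
Deviation of every array from the mean of its group, in log2 units, for the 10 genes (rows) and 12 arrays (columns, by group and replicate number). Wild-type vehicle array 1 is below its group mean in 9 of the 10 genes, and Nr1d1 spreads widely among the dexamethasone arrays of both genotypes.

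Genes of the opposite phase of the clock were read from a separate list, of which 4 of 6 were measured. Nfil3, a D-box repressor, rose by 1.92 ± 0.176 in knockout livers (adjusted p = 1.37e-05) and by 1.98 ± 0.176 in wild-type livers (adjusted p = 1.15e-05; limma). Arntl, the partner of CLOCK, had log2 levels of 4.04, 3.92 and 3.95 in knockout dexamethasone arrays and 5.66, 4.46 and 5.09 in knockout vehicle arrays. Its wild-type levels were 4.34, 4.17 and 4.09 with dexamethasone and 4.22, 3.35 and 3.38 with vehicle. Arntl fell by 1.10 in knockout livers (adjusted p = 0.0188) and stood at 0.55 in wild-type livers (adjusted p = 0.226; limma). Between knockout and wild type under vehicle it was at 1.42 ± 0.262 (adjusted p = 0.0952), opposite in sign to the 10 genes, and its interaction was -1.65 ± 0.371 (adjusted p = 0.424; limma). No gene of this list passed a genotype comparison.

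Of 6 other genes of the loop, Bhlhe40 and Bhlhe41, repressors that compete at E-boxes, fell in wild-type livers by 0.95 (adjusted p = 0.00169) and 1.79 (adjusted p = 0.00177; limma). In knockout livers Bhlhe40 fell by 0.56 (adjusted p = 0.0463) and Cry2, a repressor partner of the PER proteins, rose by 0.65 (adjusted p = 0.0404; limma). Among 11 measured regulators of the Period and Rev-erb proteins, such as kinases and ubiquitin ligases, 0 passed in any of the 4 pairwise comparisons in limma, and at an unadjusted p under 0.05 there was 1 for dexamethasone in each genotype and 0 between genotypes. Of 13 measured output and PAR bZIP target genes, 5 rose and 1 fell with dexamethasone in knockout livers, and 6 rose and 1 fell in wild-type livers. Of all genes 4.38% rose and 3.92% fell in knockout livers, and 4.57% rose and 6.95% fell in wild-type livers. The median change of the 13 was 0.9451 in knockout livers, against -0.009 over all genes, and 0.9156 in wild-type livers, against 0.00957. Nampt, the enzyme of NAD salvage, rose by 1.88 in knockout livers and by 1.62 in wild-type livers, and Upp2, a uridine phosphorylase, by 1.79 in knockout livers and by 0.97 in wild-type livers. Upp2 was also lower in knockout than in wild-type livers under vehicle (-1.06 ± 0.155, adjusted p = 0.0227; limma), the only gene of that list to pass.

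Of 9 measured Rev-erb target genes of metabolism, 0 rose and 3 fell in knockout livers, and 1 rose and 3 fell in wild-type livers. Of all genes 3.92% fell in knockout livers and 6.95% in wild-type livers. The median change of the 9 was -0.4028 in knockout livers and -0.5209 in wild-type livers. Elovl3, a fatty acid elongase, fell by 1.29 in knockout livers, and Lpl and Fasn fell by 1.03 and 1.13 in wild-type livers. Nr3c1, which encodes the glucocorticoid receptor, was at -0.35 ± 0.145 in knockout livers (adjusted p = 0.206) and at -0.19 ± 0.145 in wild-type livers (adjusted p = 0.484; limma). Of 11 immediate inputs to the clock linked to feeding and serum, Klf15 alone passed in a pairwise comparison, and rose by 0.85 in knockout livers (adjusted p = 0.00113; limma).

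**Figure D5:**
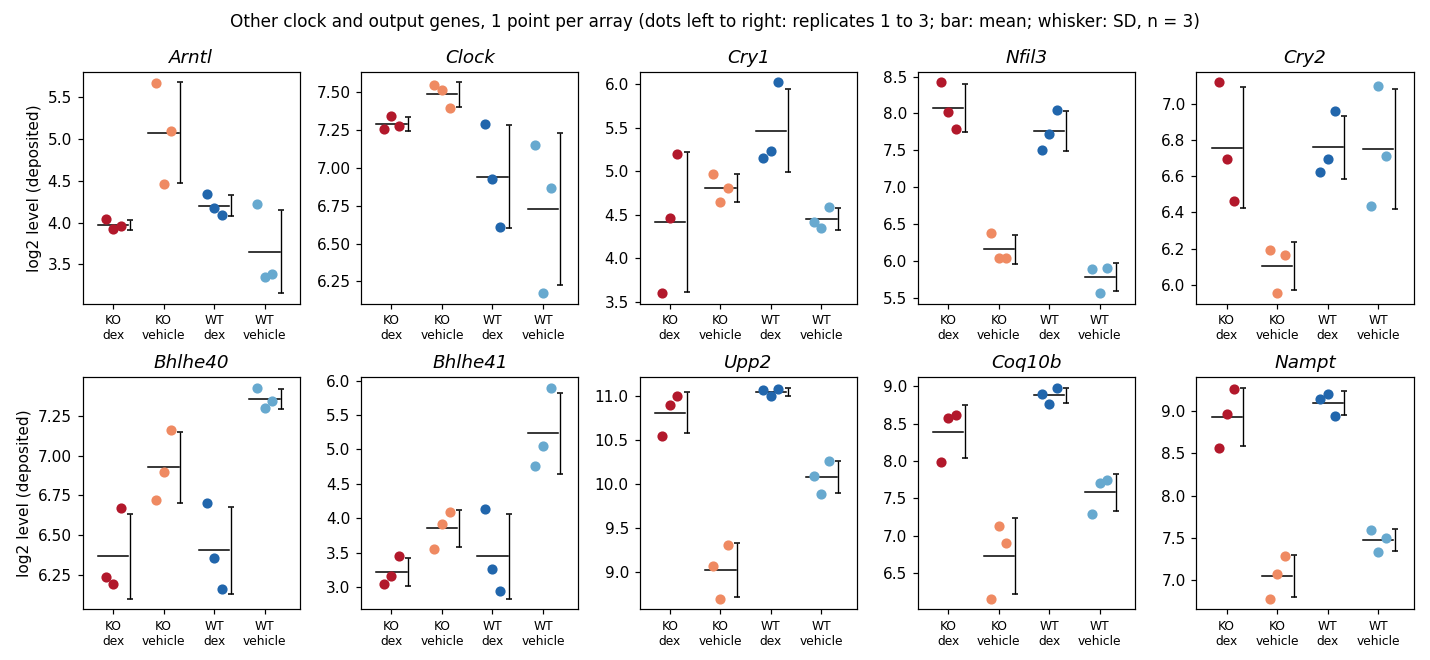
Deposited log2 level of 10 other clock and output genes in every array, by group; each point is 1 array, the bar is the mean and the whisker the SD (n = 3). Nfil3, Nampt, Upp2 and Coq10b stood higher with dexamethasone in both genotypes, and Arntl was highest in knockout vehicle arrays.

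The genes most like 3 of the members over the 12 arrays were found by the root mean square difference of their profiles, each centred on its own mean. For Nr1d1 they were Cldn1 (0.535), Arrdc3 (0.724) and Osgin1 (0.74), set against a root mean square of 1.7 for Nr1d1 itself. For Dbp they were Fam47e (0.395), Fzd8 (0.402) and Gas1 (0.43), against 0.731. For Per1 they were Coq10b (0.331), Upp2 (0.386) and Map2k6 (0.387), against 1 for Per1. Fam47e, Map2k6 and Upp2 were also among the 18 genes that passed between knockout and wild type under vehicle. As they were picked for likeness to Dbp or Per1 over the same arrays, this overlap partly follows from the choice.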

How the data were processed

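Liver RNA of 12 mice was measured on 1 Affymetrix whole-transcript array each. The deposited values are log2 intensities that the authors computed with affy in R 2.10.0 (from the submitters' processing notes); the background correction, normalisation and summarisation are not given in the sources used here. Of 34760 probe sets, 21640 had 1 symbol in the platform annotation, and the one with the highest mean stood for a gene. Genes above the 20th percentile of their array in at least 3 arrays were kept (17904). A linear model of the 4 groups was fitted with limma 3.58.1 (R 4.3.3) on the 12 arrays together, with Benjamini-Hochberg adjustment over all genes and a threshold of 0.05. Errors of changes are standard errors from 1 variance per gene shared by the 4 groups, also where the groups differ in spread. The number of arrays limits the precision.

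All 10 clock genes are named. From each other list up to 4 genes per comparison with the smallest adjusted p past the threshold may be named, besides Hdac6, Nr3c1, Fkbp5 and Arntl. The genes and lists were chosen with earlier results of these data known. Replicate numbers were not treated as pairs in the main fit. Alternatives covered filters, normalisation, arrays left out, covariates and probe sets. The fit was tested on simulated data, where 83% of interaction changes of 1 log2 unit were recovered but only 8.8% of smaller ones. The simulated noise was independent between arrays and equal across groups. In the clock genes arrays moved together and groups differed in spread, so the simulation does not cover that case.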

Additional observations from a re-analysis of the deposited data

How the results depend on the processing

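Of 1790 results of single clock genes under the alternatives, 1681 kept their direction and side of the threshold, 61 lost their call, 32 gained one and 16 changed sign. These totals, and the ranges over the alternatives below, include the fits chosen after seeing the data. The fit with the other Ciart probe set replaced the values of Ciart only, so agreement of the other genes there was nearly fixed in advance. Leaving out 1 array at a time gave 5 to 6 clock genes passing for dexamethasone in wild-type livers (6 with all arrays), 4 to 6 in knockout livers (4), 1 to 6 for the knockout under vehicle (4), 0 to 0 for the knockout under dexamethasone (0), 0 to 2 for the interaction (0), 5 to 7 for dexamethasone averaged over genotypes (6) and 0 to 6 for the knockout averaged over treatments (3). For the knockout under vehicle the count was 2 with the pancreas marker mean as a covariate and 2 in a fit of only the 2 groups compared. The averaged knockout effect had 0 with the pancreas covariate.

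A fit without both wild-type vehicle array 1 and knockout dexamethasone array 1 was added after seeing the data. These arrays were picked because these same genes deviated most on them, so its larger counts are favoured by that choice and support nothing. It gave 7 for dexamethasone in knockout livers, 7 for the knockout under vehicle, 1 for the interaction (Usp2, 3.26) and 6 for the averaged knockout effect. The other Ciart probe set was also chosen after seeing the data.

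With the replicate block, the clock genes passing were 6, 4, 4, 0, 0, 6 and 4 in the same order of comparisons, and genes passing among all genes 2018, 1440, 24, 3, 0, 3054 and 29. Correlations of same-numbered deviations ran from -0.537 to 0.356. With 3 arrays per group, some with pancreas transcripts, these values can neither show nor exclude a pairing by number. Among all genes, the count for the knockout under vehicle was 18, and 5 to 31 over the alternatives; under dexamethasone 5, and 1 to 37; for the interaction 0, and 0 to 3; for the averaged knockout effect 9, and 3 to 29. Without the pancreas-bearing arrays a single wild-type vehicle array was left, so comparisons with wild-type vehicle in that fit rest on that array.

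Sign changes were of values that passed nowhere, most of them near 0. The Per2 interaction was at 0.32 ± 0.487 with all arrays and changed sign without knockout dexamethasone array 3. Nr1d1 in the knockout under vehicle was at 0.0155 after quantile normalisation and -0.12 to 0.10 over single omissions. Nr1d2 in the knockout under dexamethasone was at 0.0276 with centred arrays, 0.0194 with array weights and -0.11 to 0.10 over single omissions. Without the pancreas-bearing arrays Hlf with dexamethasone in wild-type livers was at -0.016 and Per3 in knockout livers at 0.0252. Per3 there was at 0.0623 in the fit without the pair of arrays and -0.20 to 0.0623 over single omissions. Over single omissions Tef with dexamethasone in wild-type livers ran from -0.27 to 0.0132, Nr1d2 in knockout livers from -0.16 to 0.0506 and the Per2 interaction from -0.039 to 0.81. The cause was not tested.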
